A study of Mus musculus with 4 samples.

Results

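The 10 genes of pericytes and other mural cells, Vtn, Pdgfrb, Kcnj8, Rgs5, Abcc9, Notch3, Anpep, Higd1b, Acta2 and Tagln, were followed through bulk RNA-seq of sorted mouse brain cells. They were chosen by symbol from a list drawn up with the RPKM values of this same comparison known, and all 10 were found among the 52636 Ensembl genes of each deposited table. Pericytes and vascular smooth muscle cells are the mural cells, which wrap the endothelial tube of brain capillaries and arterioles, steady the blood-brain barrier and set vessel diameter. Pericytes are held on the capillary by PDGF-B from endothelium acting on their receptor PDGFRB, while Notch signals from endothelium act on NOTCH3 in both kinds of mural cell. Smooth muscle cells add a contractile apparatus of smooth muscle actin and its partners.

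The tissue was the corpus callosum, the large forebrain white matter tract, of Mertk_KO mice after 4 weeks on chow with 0.2% cuprizone, a copper chelator that kills the myelin-forming oligodendrocytes. AnnexinV-positive cells, which show phosphatidylserine on their surface and are called dying in the series, were compared with AnnexinV-negative, living cells, with 2 libraries in each group. Both groups carry the Mertk deletion, which removes a receptor through which phagocytes take up dying cells, and both had cuprizone, so neither genotype nor diet is compared. The labels give no age, no sex and no number of animals, and nothing says whether a group's libraries are from different animals, so the p-values below cover only how these libraries varied, which may be technical.

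In units of 1000 reads, AnnexinV-positive libraries 1 and 2 held 67448 and 60137 in genes, and AnnexinV-negative libraries 1 and 2 held 50524 and 43244, as recovered from the deposited values. Reads of Mertk were present throughout, with RPKM of 62.6 and 53.6 in AnnexinV-positive and 18.8 and 29.9 in AnnexinV-negative cells, which is no check of the genotype, as one value per gene pools deleted and remaining exons. Microglial RNA was abundant in all libraries: 10 markers of homeostatic microglia summed to an RPKM of 4893 and 4788 in AnnexinV-positive and 1876 and 2333 in AnnexinV-negative cells. The 10 markers of mature oligodendrocytes summed to 45.1 and 33.4 in AnnexinV-positive and to 881 and 481 in AnnexinV-negative cells. Of 10927 genes tested, 1012 were called lower and 3364 higher in AnnexinV-positive cells (limma, Benjamini-Hochberg adjusted p under 0.05). The split depended on the scale, with 1184 lower and 1133 higher after each library was centred on the median of the genes tested, and 2091 lower and 113 higher on a TPM scale. RPKM over all genes summed to 200348 and 217768 in AnnexinV-positive and to 122944 and 120680 in AnnexinV-negative libraries. The deposited scale thus sets AnnexinV-positive values higher than the TPM scale does, which makes these sums equal. Genes tested had a median log2 difference of 0.45 as deposited, 0.13 after centring and -0.32 in TPM.

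Of the 10 mural genes, 9 had lower RPKM in both AnnexinV-positive libraries than in either AnnexinV-negative library, and 1, Anpep, had higher RPKM in both. RPKM scales reads by gene length and library depth, so levels can be set beside each other across the genes of a library. Because of how the genes were chosen, their values are a description and no test is read from them. The log2 differences of the 10 genes ran between -4.55 and 0.74 with a median of -2.75, on the log2(RPKM + 0.1) scale, as AnnexinV-positive minus AnnexinV-negative. An RPKM of 1 in 2 libraries, the minimum for the fit, was reached by 6 members, and Pdgfrb, Kcnj8, Rgs5 and Higd1b did so through the AnnexinV-negative group alone, so they had to differ. Of these 6, 5 were called lower and 0 higher, beside 9.26% and 30.8% of all genes tested, and nothing is read from setting them side by side. When the minimum was applied again without AnnexinV-negative library 1 or 2, 2 members remained past it, of which 1 and 2 were called lower, while with the genes tested held 5 and 6 of 6 were. Among genes past that minimum the groups did not overlap, with AnnexinV-positive cells lower, for 14.9%, and with AnnexinV-positive cells higher for 60.9%. With the minimum at an RPKM of 0.1, which all 10 reach, 7 of 10 were called lower and 0 higher, beside 12.8% and 9.66% of all genes. At that minimum, groups that did not overlap with AnnexinV-positive cells lower were found for 9 of 10 members and for 31.2% of 30494 genes, and with AnnexinV-positive cells higher for 1 member and for 32.5% of genes. In sorted bulk samples, fewer mural cells and less RNA per mural cell cannot be told apart.

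**Figure D1:**
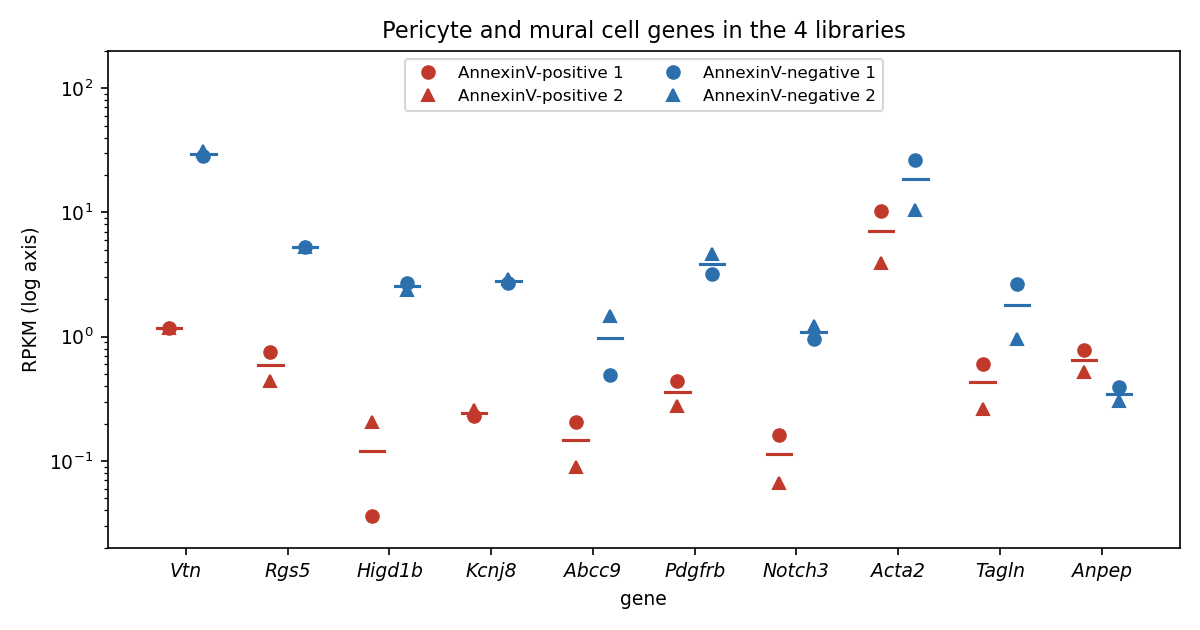
RPKM (log axis) of the 10 pericyte and mural cell genes, with AnnexinV-positive libraries in red left of AnnexinV-negative libraries in blue, circles for library 1, triangles for library 2 and a bar for the mean of the 2 libraries. Of the genes, 9 are lower in both AnnexinV-positive libraries, while Anpep is higher in both, and Acta2 and Tagln have library 1 above library 2 in each group.

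Vtn encodes vitronectin, a secreted adhesion protein that in the mouse brain is read mainly from pericytes. It lies on the plus strand of chromosome 11 at 78499091 to 78502324 (GRCm38, GENCODE vM21). Its RPKM was 1.17 and 1.18 in AnnexinV-positive cells, against 28.4 and 31.1 in AnnexinV-negative cells. This was the widest gap among the 10 genes with a pseudocount of 0.1 or 1, while with 0.01 Higd1b was at -4.68 and Vtn at -4.65 in log2. In AnnexinV-positive cells Vtn had the closest pair of libraries: the means were 1.18 ± 0.00553 and 29.7 ± 1.92 (SD, n = 2 each), and the AnnexinV-negative mean was 25.3 times the AnnexinV-positive one. Vtn was the highest of the 10 in AnnexinV-negative cells, with 38.7% and 51.3% of their summed RPKM. In AnnexinV-positive cells it held 8.01% and 16.4% of the sum.

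Higd1b, a small mitochondrial membrane protein gene used as a pericyte marker, is on the plus strand of chromosome 11. It stood at an RPKM of 0.0358 and 0.206 in AnnexinV-positive cells and at 2.71 and 2.36 in AnnexinV-negative cells. The AnnexinV-positive values rest on 3 and 15 reads, against 276 and 194 reads in the AnnexinV-negative libraries. For the 3 reads, an exact Poisson interval of 95% spans 0.00739 to 0.105 RPKM, and for the 15 reads 0.115 to 0.339, so both stayed far below the AnnexinV-negative pair while the size of the gap is loose. Such intervals cover counting error only. The log2 difference was -3.69.

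Rgs5, an inhibitor of G protein signalling that is among the best known pericyte markers, lies on the plus strand of chromosome 1 at 169655501 to 169695813. Its RPKM was 0.747 and 0.437 in AnnexinV-positive cells, against 5.31 and 5.24 in AnnexinV-negative cells. The AnnexinV-negative libraries were nearly equal, and the AnnexinV-positive ones differed 1.71-fold from each other, much less than the 8.91-fold gap between the group means. Its neighbour Rgs4, also a gene of brain mural cells, begins 45.7 kb away on the same chromosome and is no member of the list. Rgs4 stood at an RPKM of 1.09 and 0.577 in AnnexinV-positive and 6.26 and 7.34 in AnnexinV-negative cells, or -2.94 as a log2 fold change (SE 0.30, limma adjusted p 0.00128). The ratio of Rgs5 to Pdgfrb was 1.71 and 1.59 in AnnexinV-positive and 1.68 and 1.14 in AnnexinV-negative cells, so that these 2 genes kept similar proportions across the groups, with overlapping ranges.

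Kcnj8 and Abcc9 encode the pore, Kir6.1, and the sulfonylurea receptor, SUR2, of the ATP-sensitive potassium channel through which mural cells respond to metabolic state. They are neighbours on the minus strand of chromosome 6, with Kcnj8 at 142564837 to 142571614, Abcc9 at 142587862 to 142702315 and 16.2 kb between them. Kcnj8 had an RPKM of 0.230 and 0.255 in AnnexinV-positive cells and of 2.73 and 2.90 in AnnexinV-negative cells, which is 58 and 56 reads against 835 and 716. Both groups were tight, and the AnnexinV-negative mean was 11.6 times the AnnexinV-positive one. Abcc9 had an RPKM of 0.204 and 0.0902 in AnnexinV-positive cells and of 0.489 and 1.48 in AnnexinV-negative cells. The groups did not overlap, but AnnexinV-negative library 1 held 0.330 times the level of library 2, so the mean of 0.985 ± 0.701 (SD, n = 2) is loose. The proportion of the channel subunits varied between libraries in both groups, with overlapping ranges: the ratio of Kcnj8 to Abcc9 was 1.13 and 2.83 in AnnexinV-positive and 5.58 and 1.96 in AnnexinV-negative cells. Abcc9 shares 158 exon bases with the antisense gene 5330439B14Rik, whose reads cannot be told apart without strand and which was at an RPKM of at most 0.126.

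Pdgfrb, the receptor tyrosine kinase that recruits and keeps pericytes, is on the plus strand of chromosome 18. Its RPKM was 0.437 and 0.276 in AnnexinV-positive cells and 3.17 and 4.59 in AnnexinV-negative cells. Library 1 was the higher one in AnnexinV-positive cells and the lower one in AnnexinV-negative cells, and the AnnexinV-negative mean of 3.88 ± 1.002 was 10.9 times the AnnexinV-positive mean of 0.357 ± 0.114 (SD, n = 2 each). Notch3, the Notch receptor of mural cells, on the minus strand of chromosome 17, had an RPKM of 0.161 and 0.0664 in AnnexinV-positive cells and of 0.951 and 1.22 in AnnexinV-negative cells. It was the lowest of the 10 in AnnexinV-positive cells, and the AnnexinV-negative mean was 9.53 times as high. Notch3 shares 488 exon bases with the antisense gene Gm17276, which was at an RPKM of at most 0.0779.

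Acta2, smooth muscle actin, and Tagln, the actin-binding protein transgelin, are the contractile genes of the list. Acta2 lies on the minus strand of chromosome 19 at 34241090 to 34255590. Its RPKM was 10.2 and 3.91 in AnnexinV-positive cells, against 26.6 and 10.4 in AnnexinV-negative cells. AnnexinV-positive library 1 almost reached AnnexinV-negative library 2, and the log2 difference was -1.38. It was the smallest in size among the 9 genes that were lower, but not with a pseudocount of 1, where Abcc9 (-0.75), Notch3 (-0.90) and Tagln (-0.91) were below Acta2 (-1.26) in size, nor without AnnexinV-negative library 2, where Abcc9 was at -1.29 and Acta2 at -2.05. Acta2 was the member past the minimum that was not called, though it was called on the TPM scale and with the replicate number as a block. Its log2 difference was -2.07 without AnnexinV-positive library 1 and -0.70 without library 2. Without AnnexinV-negative library 1 and 2 it was -0.71 and -2.05. Tagln, on the minus strand of chromosome 9, had an RPKM of 0.602 and 0.262 in AnnexinV-positive cells and of 2.66 and 0.951 in AnnexinV-negative cells. The gap between groups was again modest, at a log2 difference of -1.75, and within each group library 1 was above library 2.

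Values of both genes carry a limit from shared sequence. Acta2 is nearly identical in its coding part to other actin genes, and Actb, the cytoplasmic actin, was at an RPKM of 2805 and 2775 in AnnexinV-positive and 1334 and 1529 in AnnexinV-negative cells, so that misassigned reads would weigh on Acta2 and its level is uncertain. Tagln shares 1241 of its 1988 exon bases with the antisense gene Gm48529, which had an RPKM of 0.395 and 0.192 in AnnexinV-positive and 0.506 and 0.549 in AnnexinV-negative cells, and 108 with Pcsk7. How far shared reads move either gene was not tested.

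The promoters of these genes were read from the RefSeq table (GRCm38.p6), which matched 7 of the 10 members, all but Pdgfrb, Higd1b and Tagln. Serum response factor, the main activator of contractile genes, binds the CArG box, and 250 bases before each gene's start were searched for it, allowing at most 1 of its 6 central positions to be C or G in place of A or T. The box reads the same on both strands. Such a match was held by 8.59% of 32851 promoters, and 1.47% held a box with no departure. Acta2 was the member with a match, and it had 2, which begin 84 and 34 bases before the start. Of the other lists, 2 of 13 smooth muscle genes, 3 of 18 further pericyte genes and 4 of 15 endothelial genes with a promoter in the table had a match, so the box did not sort these lists. Acta2 is shown with Myl9, the smooth muscle gene with 2 matches, and with the channel pair Kcnj8 and Abcc9 and the marker Rgs5, which had none; capitals mark the matches. The windows are chr19:34255374-34255623 on the minus strand for Acta2, chr2:156775214-156775463 on the plus strand for Myl9, chr6:142571615-142571864 on the minus strand for Kcnj8, chr6:142702275-142702524 on the minus strand for Abcc9 and chr1:169655251-169655500 on the plus strand for Rgs5, each written 5′ to 3′ on the strand of its gene. A match is a description of letters and does not show binding.
Acta2: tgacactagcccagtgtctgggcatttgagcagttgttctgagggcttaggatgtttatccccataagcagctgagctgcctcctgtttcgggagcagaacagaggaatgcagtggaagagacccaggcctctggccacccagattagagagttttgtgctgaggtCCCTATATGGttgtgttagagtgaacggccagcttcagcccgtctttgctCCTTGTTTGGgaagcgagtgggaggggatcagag
Myl9: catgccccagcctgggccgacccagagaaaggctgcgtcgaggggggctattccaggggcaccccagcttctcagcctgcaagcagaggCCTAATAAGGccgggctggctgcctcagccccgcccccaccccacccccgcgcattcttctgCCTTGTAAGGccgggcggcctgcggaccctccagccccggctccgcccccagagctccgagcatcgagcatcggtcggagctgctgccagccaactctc
Kcnj8: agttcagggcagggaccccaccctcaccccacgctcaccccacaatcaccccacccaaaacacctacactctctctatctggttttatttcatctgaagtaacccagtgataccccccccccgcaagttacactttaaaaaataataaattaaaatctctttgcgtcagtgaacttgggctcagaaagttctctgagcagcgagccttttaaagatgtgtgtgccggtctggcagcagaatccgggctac
Abcc9: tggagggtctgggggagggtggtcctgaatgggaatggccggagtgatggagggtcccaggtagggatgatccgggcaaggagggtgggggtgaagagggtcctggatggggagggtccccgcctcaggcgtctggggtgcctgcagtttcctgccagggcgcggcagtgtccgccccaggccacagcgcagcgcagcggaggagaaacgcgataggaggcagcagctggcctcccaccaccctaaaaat
Rgs5: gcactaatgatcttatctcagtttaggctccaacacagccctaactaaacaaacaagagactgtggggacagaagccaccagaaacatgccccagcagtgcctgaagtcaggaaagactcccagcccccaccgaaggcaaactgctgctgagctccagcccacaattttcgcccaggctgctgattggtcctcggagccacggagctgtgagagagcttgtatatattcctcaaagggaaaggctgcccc

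Anpep encodes aminopeptidase N, or CD13, which pericytes carry on their surface and which cells of the myeloid lineage carry as well. It lies on the minus strand of chromosome 7. Its RPKM was 0.788 and 0.520 in AnnexinV-positive cells and 0.395 and 0.302 in AnnexinV-negative cells. On the deposited scale it was thus the member that went against the other 9, by a log2 difference of 0.74, where the median of all genes tested was 0.45. The difference was 0.42 after centring and 0.11 in TPM, so the rise of Anpep depended on the scale. Markers of border macrophages moved the same way: all 8 listed genes were higher in both AnnexinV-positive libraries than in either AnnexinV-negative library, none was at 0 in any library, and their summed RPKM was 17.6 and 17.6 in AnnexinV-positive and 6.94 and 5.64 in AnnexinV-negative cells. Homeostatic microglia markers were also higher in all 10 cases. Such a pattern held for 32.5% of genes at the minimum of 0.1 and for 60.9% of genes tested, and on the TPM scale 0 genes of either list were called higher. Markers of monocytes and neutrophils did not share this pattern. Of 8 listed genes 5 were lower in both AnnexinV-positive libraries than in either AnnexinV-negative one, and 0 were higher in both. Groups apart in that lower direction were found for 31.2% of genes at the minimum of 0.1. The part of border macrophages, microglia, monocytes or neutrophils in the Anpep values was not tested.

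The order of levels differed between the groups. In AnnexinV-positive cells it ran Acta2, Vtn, Anpep, Rgs5, Tagln, Pdgfrb, Kcnj8, Abcc9, Higd1b and Notch3, with mean RPKM between 7.08 and 0.114. The ranges of the neighbours overlapped between Anpep and Rgs5, Rgs5 and Tagln, Tagln and Pdgfrb, Abcc9 and Higd1b, and Higd1b and Notch3, so those ranks do not differ beyond the spread. In AnnexinV-negative cells the order was Vtn, Acta2, Rgs5, Pdgfrb, Kcnj8, Higd1b, Tagln, Notch3, Abcc9 and Anpep, with means between 29.7 and 0.348, and the neighbours overlapped between Higd1b and Tagln, Tagln and Notch3, and Notch3 and Abcc9. Acta2 made up 70.1% and 54.3% of the members' summed RPKM in AnnexinV-positive cells, against 36.3% and 17.2% in AnnexinV-negative cells. The 7 genes Vtn, Pdgfrb, Kcnj8, Rgs5, Abcc9, Notch3 and Higd1b summed to an RPKM of 2.99 and 2.51 in AnnexinV-positive and 43.7 and 48.9 in AnnexinV-negative cells, while Acta2 and Tagln together summed to 10.8 and 4.17 and to 29.3 and 11.4. The ratio of Acta2 to Pdgfrb was accordingly 23.4 and 14.2 in AnnexinV-positive cells and 8.396 and 2.27 in AnnexinV-negative cells.

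The libraries of a group also differed in these genes. Acta2 was 2.62 times as high in library 1 as in library 2 of AnnexinV-positive cells and 2.55 times as high in AnnexinV-negative cells, and Tagln 2.30 and 2.79 times. Rgs5 and Anpep were also higher in library 1 of both groups, Rgs5 by 1.71 times in AnnexinV-positive and 1.01 times in AnnexinV-negative cells. Notch3, Abcc9 and Pdgfrb were 2.42, 2.26 and 1.59 times as high in library 1 of AnnexinV-positive cells, but 0.782, 0.330 and 0.691 times as high in library 1 of AnnexinV-negative cells. Vtn and Kcnj8 were nearly equal in both libraries of a group, with log2 differences between library 1 and 2 of -0.0088 and -0.11 in AnnexinV-positive and of -0.13 and -0.085 in AnnexinV-negative cells. Of the 18 listed genes of smooth muscle, 15 were higher in library 1 in both groups, where 15.1% of all genes tested were, with a median log2 excess of 0.39 in AnnexinV-positive and 0.72 in AnnexinV-negative cells. That share is over genes past the minimum, which 10 of the 18 did not reach, and no share was taken over lower genes. The smooth muscle genes named here were picked after their values were seen: Myh11, smooth muscle myosin, had an RPKM of 1.98 and 0.639 in AnnexinV-positive and 3.41 and 2.11 in AnnexinV-negative cells, and Myl9, a myosin light chain, 7.03 and 3.18 against 23.2 and 10.97. Of 24 further pericyte genes 7 followed that pattern, and of 21 endothelial genes 2. Among the 24 and the 21, 13 and 6 were below the minimum. The pattern was not confined to vascular genes, as all 10 listed markers of mature oligodendrocytes showed it. Their median log2 excess was 0.42 in AnnexinV-positive and 1.07 in AnnexinV-negative cells. The labels do not say that libraries with the same number share animals, and these are descriptions with no test.

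Markers of the choroid plexus and ependyma moved with this split with the largest median excess among the 17 lists. All 8 were higher in library 1 in both groups, with a median log2 excess of 2.09 in AnnexinV-positive and 2.64 in AnnexinV-negative cells, and their summed RPKM was 414 and 61.0 in AnnexinV-positive and 387 and 22.4 in AnnexinV-negative libraries 1 and 2. None was at 0 in any library. Among 15 fibroblast genes 12 were higher in library 1 in both groups, and they summed to 7.88 and 3.70 in AnnexinV-positive and to 15.8 and 9.49 in AnnexinV-negative cells. Of these 15 genes 13 were below the minimum, while the share of 15.1% given above is over genes past it. The part of choroid plexus, meningeal or arterial tissue in the values of Acta2 and Tagln was not tested.

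**Figure D2:**
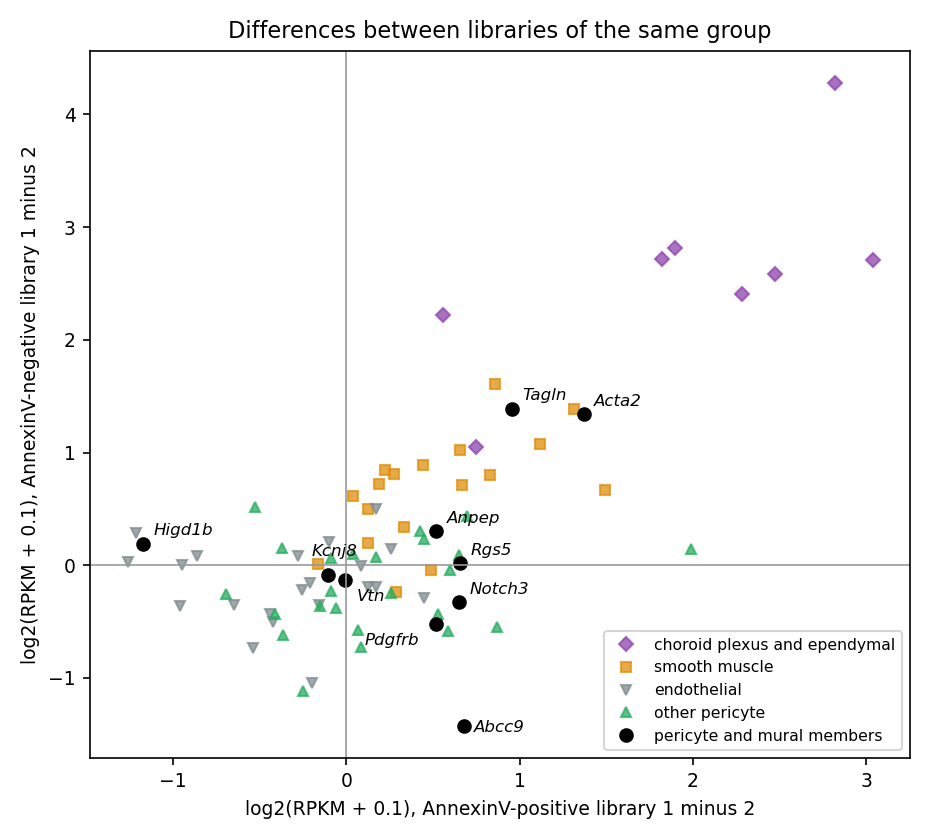
Difference in log2(RPKM + 0.1) between library 1 and library 2 of AnnexinV-positive cells (horizontal) and of AnnexinV-negative cells (vertical) for the 10 members, named, and for listed genes of other pericyte, smooth muscle, endothelial and choroid plexus or ependymal cells. Acta2 and Tagln lie among the smooth muscle genes in the upper right, towards the choroid plexus genes, while Vtn and Kcnj8 lie near 0 on both axes.

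Further genes of mural cells that are no members were tested in the fit over all genes. Of 24 listed pericyte genes 11 reached the minimum, and 10 of them fell in AnnexinV-positive cells (limma, adjusted p under 0.05). Centring or TPM left that count at 10. Of the 11, 9 reached the minimum through the AnnexinV-negative libraries alone and so had to be lower, and 9.26% of all genes tested were called lower, so the count is a description. Mcam, an adhesion molecule of mural and endothelial cells, stood at an RPKM of 1.42 and 0.839 in AnnexinV-positive and 9.20 and 6.76 in AnnexinV-negative cells, which gave a fold change of -2.74 in log2 (SE 0.29, limma adjusted p 0.00150). Ndufa4l2, a mitochondrial gene enriched in pericytes, was at 0.141 and 0.211 against 1.76 and 1.57 RPKM (-2.68, SE 0.32, limma adjusted p 0.00226). Cald1, the actin-binding caldesmon, was at 0.594 and 0.409 against 3.44 and 2.91 RPKM (-2.46, SE 0.27, limma adjusted p 0.00167). Ndufa4l2 and Cald1 were among the genes that reached the minimum through the AnnexinV-negative libraries alone and so had to be lower. The tested gene that was not called was Cspg4, the NG2 proteoglycan shared with oligodendrocyte precursors, at an RPKM of 10.1 and 12.03 in AnnexinV-positive and 5.06 and 11.1 in AnnexinV-negative cells (0.55, limma adjusted p 0.237). Over all 24 listed genes, whether tested or not, the median log2 difference was -2.03, and 23 were lower in both AnnexinV-positive libraries than in either AnnexinV-negative one. Without either AnnexinV-negative library the minimum was reached by 2 of these genes and 1 was called lower, but with the genes tested held 10 and 9 of 11 were called without AnnexinV-negative library 1 and 2.

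Among smooth muscle genes fewer calls were made. Of 18 genes 8 reached the minimum and 4 fell (5 after centring, 7 in TPM), beside 9.26% of all genes tested. Of the 8, 2 reached the minimum through the AnnexinV-negative libraries alone and so had to be lower, Mustn1 among them. Among those that fell were Tpm1, a tropomyosin, at a log2 difference of -1.03 (SE 0.24, limma adjusted p 0.0159), and Mustn1 at -1.60 (SE 0.39, limma adjusted p 0.0182). Without AnnexinV-positive library 2 the limma adjusted p was 0.0630 for Tpm1 and 0.0670 for Mustn1. Tpm1 was at an RPKM of 1.98 and 1.81 in AnnexinV-positive and 4.74 and 3.32 in AnnexinV-negative cells. Myl9 was also called, at -1.73 (SE 0.45, limma adjusted p 0.0234). Myh11, at -1.17, missed the threshold (limma adjusted p 0.0947). Without AnnexinV-positive library 2, or AnnexinV-negative library 1, 2 of these genes were called lower; with the genes tested held, 1 and 3 were. The median over all 18 was -1.09, nearer to the values of Acta2 and Tagln than to those of the pericyte members. Whether the lists differ from each other was not tested.

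**Figure D3:**
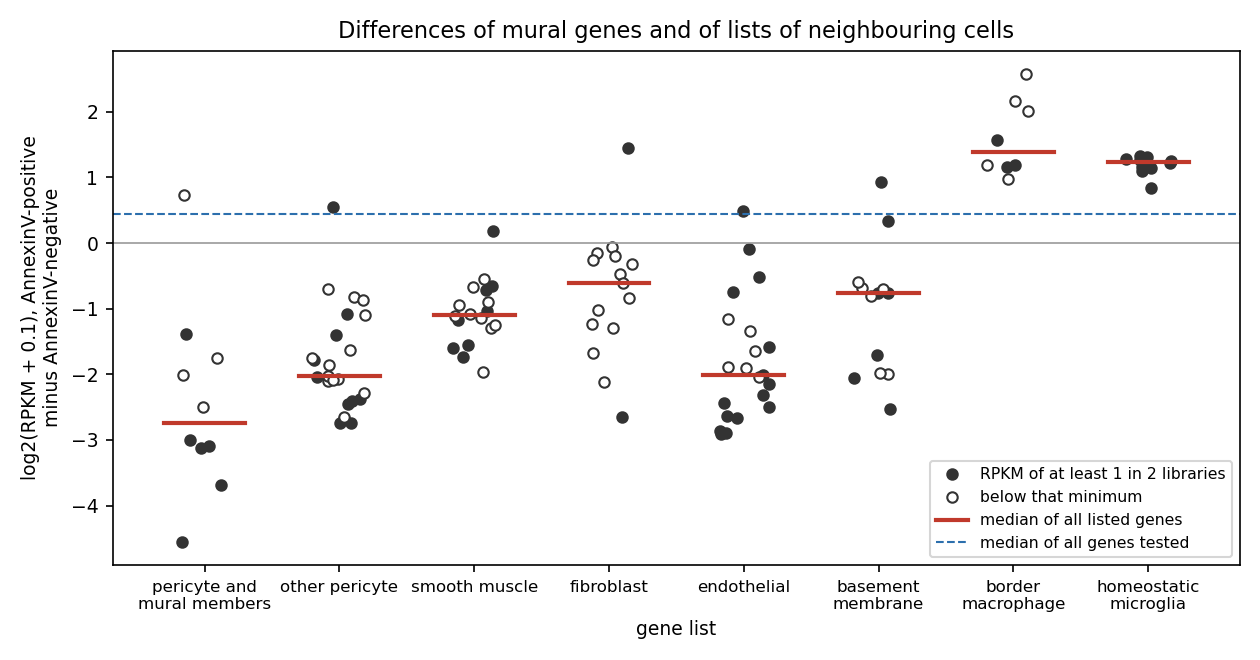
Difference in log2(RPKM + 0.1), AnnexinV-positive minus AnnexinV-negative, of each gene in the list of members and in 7 other lists, with filled points for genes at an RPKM of at least 1 in 2 libraries, open points for genes below that, a red bar for the median of each list and a dashed line at 0.45, the median of all genes tested. The medians are -2.75 for the members, -2.03 for other pericyte genes, -1.09 for smooth muscle and -2.01 for endothelial genes, and macrophage and microglia genes lie above 0.

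Most tested endothelial genes, those of the cells that mural cells wrap, fell too, but not all. Of 21 listed genes 15 reached the minimum and 12 fell (12 after centring, 13 in TPM), and the median over all 21 was -2.01. Of the 15, 8 reached the minimum through the AnnexinV-negative libraries alone and so had to be lower, and 9.26% of all genes tested were called lower, so the count is a description. Flt1 (-0.090) and Kdr (-0.52), receptors for VEGF, were not called and their groups overlapped, and the glucose transporter Slc2a1, the most abundant of the list, was at an RPKM of 52.5 and 48.1 in AnnexinV-positive and 33.5 and 38.4 in AnnexinV-negative cells (0.49, limma adjusted p 0.0663). Esam, an adhesion molecule, was at an RPKM of 0.727 and 0.785 in AnnexinV-positive and 6.56 and 5.67 in AnnexinV-negative cells (limma adjusted p 4.85e-04). Cldn5, the main claudin of the blood-brain barrier, was at 1.46 and 2.73 against 16.0 and 15.1 RPKM, and the transporter Slco1a4 at 0.749 and 0.653 against 4.62 and 5.31 RPKM. Esam and Slco1a4 were among the genes that reached the minimum through the AnnexinV-negative libraries alone and so had to be lower. Without AnnexinV-negative library 1 or 2, when the minimum was reached by 7 genes, 4 and 3 of them were called lower, and 12 and 11 with the genes tested held. Of 13 genes of the vascular basement membrane, the sheet in which pericytes are embedded, 7 were tested, of which 5 fell and 1 rose (5 and 0 after centring and in TPM; 1 to 5 lower without 1 library). Of all genes tested, 9.26% were called lower and 30.8% higher. The collagen IV chains Col4a1 and Col4a2 had log2 fold changes of -2.52 (SE 0.35) and -2.06 (SE 0.35), and Sparcl1, which astrocytes also make, of -1.70 (SE 0.24). Both collagen chains reached the minimum through the AnnexinV-negative libraries alone and so had to be lower.

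In the PDGF pathway the ligand and the receptor went opposite ways on the deposited scale. Pdgfb, the ligand of PDGFRB, was at an RPKM of 37.1 and 33.7 in AnnexinV-positive and 12.6 and 15.2 in AnnexinV-negative cells, or 1.34 as a log2 fold change (SE 0.19, limma adjusted p 0.00340). In TPM the difference was 0.57 (limma adjusted p 0.0854), so the rise depends on the scale, while Pdgfrb was lower on all 3 scales, at -3.12 as deposited, -3.44 after centring and -4.15 in TPM. On the deposited scale, the median log2 difference was -2.01 over the listed endothelial genes and 1.24 over the homeostatic microglia markers. Which cells the Pdgfb reads came from was not tested. Plat, tissue plasminogen activator, which can activate PDGF-C, fell to 0.669 and 0.962 RPKM in AnnexinV-positive cells, against 8.66 and 8.39 RPKM in AnnexinV-negative cells (-3.25, SE 0.23, limma adjusted p 3.98e-04). Plat reached the minimum through the AnnexinV-negative libraries alone and so had to be lower. Grb2, an adaptor that many cells use, rose by 1.01 (limma adjusted p 0.00577), but by 0.24 in TPM (limma adjusted p 0.358). Of 17 listed genes 13 were tested, 6 rose and 1 fell, against 3 and 1 after centring and 0 and 3 in TPM, where 30.8% of all genes tested were called higher as deposited. Without AnnexinV-positive library 1, 3 were called higher.

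In the Notch pathway calls went both ways. Of 23 listed genes 19 were tested, with 8 higher and 3 lower (1 and 4 after centring, 0 and 4 in TPM), beside 30.8% and 9.26% of all genes tested. Without 1 library the counts ran between 1 and 11 higher and between 1 and 4 lower; they were 2 and 3 higher without AnnexinV-positive library 1 and 2, and 1 lower without AnnexinV-negative library 1 or 2. The genes that fell on the deposited scale were the ligand Dll1, at 0.305 and 0.117 RPKM in AnnexinV-positive and 2.64 and 3.71 RPKM in AnnexinV-negative cells (-3.45, SE 0.38, limma adjusted p 0.00171), and the target genes Hes5 (-2.53, SE 0.35) and Hey1 (-2.22, SE 0.31). Heyl, a target of NOTCH3 in mural cells, did not reach the minimum and was at an RPKM of 0.134 and 0.123 in AnnexinV-positive and 0.576 and 0.910 in AnnexinV-negative cells. Jag1, a ligand on endothelium and smooth muscle, had a log2 difference of -1.04 (limma adjusted p 0.0510). Dll1, Hey1 and Jag1 reached the minimum through the AnnexinV-negative libraries alone and so had to be lower.

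Of 14 other listed regulators of G protein signalling 8 were tested, 5 rose and 1, Rgs4, fell (4 and 1 after centring, 1 and 2 in TPM); with 30.8% higher and 9.26% lower, more genes rose than fell over all genes tested as well. Rgs10, which microglia express, was at an RPKM of 100.2 and 131 in AnnexinV-positive and 43.5 and 40.9 in AnnexinV-negative cells (1.44, SE 0.20, limma adjusted p 0.00333; 0.66 and limma adjusted p 0.0411 on the TPM scale), and Rgs19 at 20.7 and 20.8 against 8.12 and 8.43 RPKM (1.32; TPM scale 0.55, limma adjusted p 0.0699). Of the other vasomotor and channel genes 4 of 16 were tested. Gna11, a G protein subunit, fell by 1.56 (SE 0.21, limma adjusted p 0.00298) and Ednrb, an endothelin receptor, by 1.18 (SE 0.26, limma adjusted p 0.0135), and Kcnma1, a calcium-activated potassium channel, rose by 0.87 (limma adjusted p 0.0479) but missed the threshold after centring and in TPM. Kcnma1 reached the minimum through the AnnexinV-positive libraries alone and so had to be higher. Kcnj11 and Abcc8, the channel subunits of other tissues that correspond to Kcnj8 and Abcc9, were at an RPKM of at most 0.0624 and 0.0550 in any library.

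Among signals between endothelial and mural cells, 10 of 14 listed genes were tested, 4 rose and 1 fell (2 and 1 after centring, 0 and 2 in TPM). Over all genes tested 30.8% were called higher and 9.26% lower, so nothing is read from the count. Cdh2, N-cadherin, which joins pericytes to endothelium and occurs in other glia too, was at an RPKM of 0.243 and 0.324 in AnnexinV-positive and 2.66 and 2.02 in AnnexinV-negative cells (-2.67, SE 0.30, limma adjusted p 0.00179). Cdh2 reached the minimum through the AnnexinV-negative libraries alone and so had to be lower. Tgfb1 (1.39) and its receptor Tgfbr1 (1.43) rose on the deposited scale and were at 0.62 and 0.66 on the TPM scale, with limma adjusted p of 0.0645 and 0.173. Which cells the Tgfb1 and Tgfbr1 reads came from was not tested. Of 15 fibroblast genes 2 were tested: Mgp, matrix Gla protein, fell to 1.74 and 0.414 RPKM in AnnexinV-positive cells, against 9.04 and 3.98 RPKM in AnnexinV-negative cells (-2.65, limma adjusted p 0.0161), and Serpinf1 rose by 1.46 (limma adjusted p 0.00733; TPM scale 0.79, limma adjusted p 0.113). Serpinf1 reached the minimum through the AnnexinV-positive libraries alone and so had to be higher. The collagens Col1a1, Col1a2 and Col3a1 stayed at an RPKM of at most 0.585 in every library.

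Genes whose profile was most like the members were sought among all genes tested by the root mean square difference, over the 4 libraries, between centred log2 values and the mean centred profile of the 6 members past the minimum. The 10 nearest were Arhgap23 (0.0689 log2 units), Map1b (0.0748), Mpzl1 (0.0850), Abtb2 (0.0868), Mfsd6 (0.0945), Pcsk6 (0.0973), Dixdc1 (0.107), Hr (0.116), Nfe2l3 (0.123) and Ephb1 (0.125). None of them was on a list used here. All but Mpzl1 reached the minimum through the AnnexinV-negative libraries alone and so had to be lower. The same holds for Pdgfrb, Kcnj8, Rgs5 and Higd1b among the 6 members that set the mean profile. Arhgap23, the nearest, was at an RPKM of 0.724 and 0.590 in AnnexinV-positive and 7.56 and 6.82 in AnnexinV-negative cells. The members themselves were farther from their mean: Kcnj8 at 0.138 came closest, then Rgs5 at 0.179 and Pdgfrb at 0.256, while Vtn was at 0.715 and Acta2 at 1.06. With 4 libraries, likeness mostly restates the gap between the groups.

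**Figure D4:**
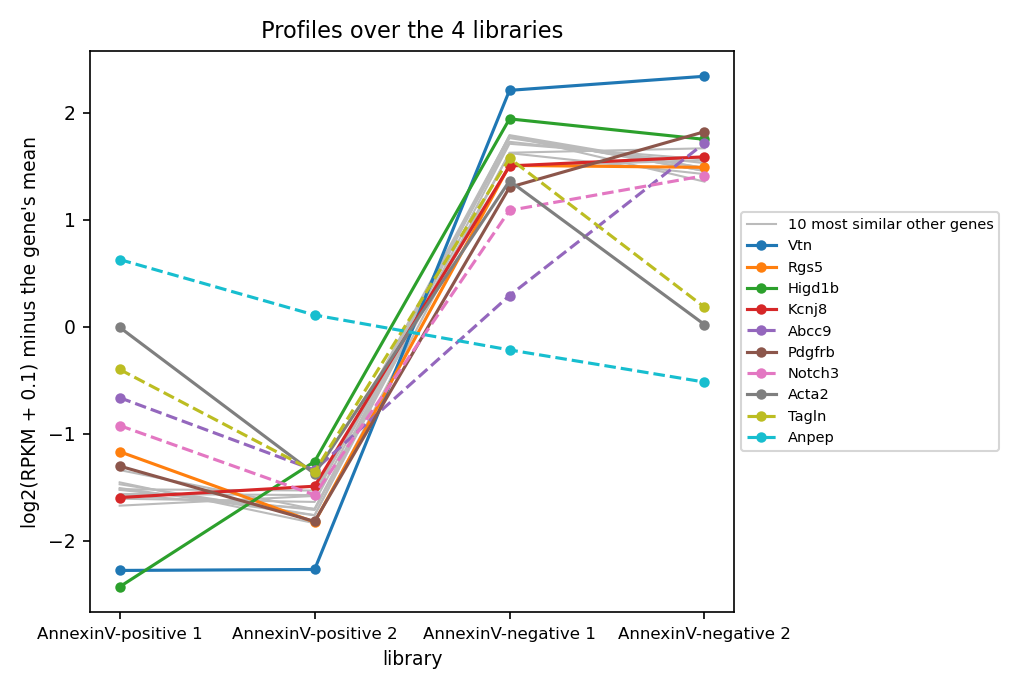
log2(RPKM + 0.1) of each gene minus its own mean over the 4 libraries, with solid lines for members at an RPKM of at least 1 in 2 libraries, dashed lines for the other members and grey lines for the 10 most similar other genes. Kcnj8, Rgs5 and Pdgfrb run with the grey lines, Acta2 and Tagln drop in library 2 of each group, and Anpep runs against the rest.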

How the data were processed

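Bulk RNA-seq libraries, 4 in all, were grouped by title, with 2 in each AnnexinV group. Alignment was by GSNAP against mm10, per the submitters' processing notes; the counter, annotation, gene lengths and scaling: not given in the sources used here. The deposited values were read as RPKM from the values themselves: among values worth fewer than 100 reads, 79.6% to 83.6% per library came within 0.01 of whole reads once divided by a step set by exonic gene length. One read in a 1 kb gene was worth 0.00833 to 0.0116 RPKM. Reads of 5 members came out whole in all libraries. The TruSeq v2 kit named in the labels' protocols does not keep strand.

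Symbols, positions and lengths came from GENCODE vM21 (GRCm38), which matched 52403 of 52636 genes. A linear model with a mean-variance trend (limma 3.58.1, R 4.3.3) was fitted to log2(RPKM + 0.1), without covariates, for the 10927 genes that reached an RPKM of 1 in 2 or more libraries, and p-values were adjusted over all of them by the Benjamini-Hochberg method. The filter, the pseudocount and the scale can each move low genes, and fold changes of low genes are understated. A gene that reached the minimum through 1 group alone had to be higher in that group. The steps were checked on simulated data. With 2 libraries against 2 there are 3 splits, so an exact permutation test cannot go below 0.333 and single values have no test. The members and the 17 other lists were chosen with earlier results of these data known. Named genes were all members, the 3 tested genes of each list with the smallest p, and the 10 most similar in profile (1 gene of the lists is not reported here); Cspg4, Myl9, Myh11, Heyl, Jag1, Kcnj11, Abcc8, Col1a1, Col1a2, Col3a1, Flt1, Kdr, Slc2a1, Mertk and Actb were named after their values were seen. The minimum was reached through the AnnexinV-negative libraries alone by 6 mature oligodendrocyte, 1 precursor and 2 monocyte or neutrophil genes, which had to be lower. Over all genes tested, 9.26% were called lower and 30.8% higher. Of the marker lists for other cells, 10 of 10 mature oligodendrocyte, 4 of 5 tested precursor, 7 of 9 astrocyte and 2 of 2 monocyte or neutrophil genes were called lower, 10 of 10 homeostatic microglia and 3 of 3 border macrophage genes higher, and 0 of 7 choroid plexus or ependymal genes were called either way; on the TPM scale 0 microglia and 0 border macrophage genes were called higher. Without 1 library these counts ran from 4 to 10 for mature oligodendrocyte, 3 to 7 for astrocyte and 0 to 2 for monocyte or neutrophil genes lower, and up to 4 choroid plexus or ependymal genes were called higher, without AnnexinV-negative library 1.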

Additional observations from a re-analysis of the deposited data

How the results depend on the processing

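Of the 10 members, each kept the sign of its log2 difference under every alternative tried: pseudocounts of 1 and 0.01, no minimum, an RPKM minimum of 0.1, centring, the TPM scale, the replicate block and leaving out each library. For Anpep the difference was as small as 0.11, on the TPM scale. The members' median of -2.75 was -1.44 with a pseudocount of 1, -3.22 with 0.01 and -3.91 on the TPM scale, and -2.93 to -2.42 without 1 library. The count of all genes called lower, 1012, was 2489 with no minimum, 3913 with the minimum at 0.1, 2091 on the TPM scale and 329 to 844 without 1 library; the count called higher, 3364, was 1865 with no minimum, 1133 after centring, 113 on the TPM scale and 1451 to 3345 without 1 library. Of the further pericyte genes, 18 were called lower with no minimum and 19 with the minimum at 0.1, and 1 to 9 without 1 library; of the smooth muscle genes 8 with the minimum at 0.1, 7 on the TPM scale and 2 to 5 without 1 library; of the endothelial genes 3 to 11 without 1 library. The low ends for pericyte and endothelial genes came where fewer genes reached the minimum; the other causes were not tested. Holding the genes tested while leaving out 1 library was chosen after seeing the data. It gave 787 to 1060 genes lower and 1297 to 3356 higher (1749 without AnnexinV-positive library 1), 8 to 10 further pericyte, 1 to 6 smooth muscle and 11 to 12 endothelial genes lower. The choroid plexus or ependymal genes Folr1, Kcnj13 and Rsph1, not called, had log2 differences of 0.67, 0.60 and 0.54 and turned to -0.041, -0.15 and -0.069 on the TPM scale. Without 1 library they spanned -0.69 to 2.03, -0.81 to 2.01 and -0.57 to 0.82, with -0.24 for Folr1 and -0.35 for Kcnj13 without AnnexinV-positive library 1, and Rsph1 reached 1.65 with the genes tested held.

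Groups share replicate numbers, but no label says that a number marks a shared animal or batch, and deviations of same-numbered libraries from their group means had a correlation of -0.21 across the 10927 genes. With the replicate number as a block, 957 genes were called lower and 2443 higher, with 10 further pericyte, 5 smooth muscle and 11 endothelial genes lower and the median of the members at -2.75. Acta2 gained a call, which made 6 of 6 members lower, basement membrane genes called lower were 3 in place of 5, and Kcnma1 lost its call (limma adjusted p 0.0727).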
